A study of Oreochromis niloticus and Pundamilia nyererei with 6 samples.

Results

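Candidate tandem duplicates were taken from the liver transcript sets of Oreochromis niloticus (ON) and Pundamilia nyererei (PN) by structure. The rule used no FPKM value. The authors built these sets from the liver reads and removed unexpressed transcripts, so expression bore on which loci were listed. Overlapping transcripts on one sequence and strand were joined into a locus, and the longest transcript stood for it. Consecutive loci of one strand formed a candidate pair when they lay less than 20000 bases apart, had the same exon number of at least 4, and differed in transcript length by at most 25% of the longer. There were 264 candidate pairs in ON and 187 in PN, 451 of the 12151 close same-strand neighbours of both species whose members had at least 4 exons. They held 506 of 23392 ON loci (2.16%) and 363 of 20142 PN loci (1.80%).

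The fish were 3 tank-reared ON males (generation ~93, from Manzala, Egypt) and 3 tank-reared PN males (generation 1, from Lake Victoria), untreated as far as the labels say, of an age they do not give. One liver library was made per fish from total RNA depleted of ribosomal RNA, with strand kept. Abundance is given for each transcript in FPKM, fragments scaled to the transcript's length in kilobases and to each Mio of fragments mapped. The aligned bases behind the values were 1691745086 to 1997213175 per library, so 3 reads on a transcript of 1000 bases come to 0.113 to 0.114 FPKM in ON and 0.116 to 0.133 FPKM in PN. This floor covers counting error only.

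A tandem duplication places a copy of a gene beside the original, often by unequal crossing-over, and a copy made from DNA keeps the exons and introns of its source. Copies may share the original function, divide it, be silenced, or come under different regulation, and fish genomes hold many families arranged in such arrays. Equal exon number and similar length are therefore what neighbouring copies would show, but unrelated neighbours can show them too. The transcripts carry serial names only, so no gene name, function or liver marker could be given, and no sequence was compared between members. The pairs are candidates by structure only. Reads that fit both members of a near-identical pair may have been divided between them, and the sources used here do not give how the quantification treated them.

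Candidate pairs were made of ordinary multi-exon transcripts. In ON the exon number ranged from 4 to 41 with a median of 7, and in PN from 4 to 40 with a median of 8. Pairs with 4 or 5 exons numbered 79 in ON and 43 in PN, pairs with at least 10 exons 73 and 59, and pairs with at least 20 exons 19 and 11. The last of these classes was the smallest in both species. The longest transcripts of the member loci had a median of 1989 bases in ON (441 to 8649) and 1918 bases in PN (470 to 10828).

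The members of a pair rarely had the same transcript length. The median difference was 11.6% of the longer transcript in ON and 13.5% in PN, with 61 ON pairs and 40 PN pairs under 5%. No ON pair and 2 PN pairs had members of identical length. One of these, chosen after its values were seen, was mRNA36282 and mRNA36284 on NW_005187702.1, each of 11 exons and 1457 bases. Its upstream member had 291, 72.9 and 159 FPKM and its downstream member 3.33, 4.11 and 0.429 FPKM in PN fish 1, 2 and 3, so that equal structure went with levels that did not overlap.

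Equal exon number went with similar length more often than unequal exon number did. Of close neighbours with equal exon number, 46.4% in ON and 45.2% in PN met the length limit, against 27.7% and 27.1% of neighbours with unequal exon number. Only 8.84% of close neighbours in ON and 7.25% in PN had equal exon number at all. The bases between the members had a median of 4023 in ON candidate pairs, against 4251 in neighbours of unequal exon number, and of 3625 in PN candidate pairs, against 4287. The pairs were divided evenly between strands, with 133 plus and 131 minus pairs in ON and 94 and 93 in PN. Out of 264 ON candidate pairs, 21 had a locus of the other strand whose lowest coordinate lay between the members. The same held for 1196 out of 5870 ON neighbours of unequal exon number. Among PN candidate pairs it held for 25 out of 187, against 1125 out of 5298 such neighbours. Neighbours of equal exon number outside the length limit showed it 53 times among 305 (ON) and 53 times among 227 (PN). Its share was thus lowest in the candidate pairs of either species, a contrast that was not tested.

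Member loci of candidate pairs carried several transcripts less often than other loci. Other loci are, here and below, those of neighbours of unequal exon number that lie in no candidate pair. Of the candidate loci 26.5% in ON and 27.0% in PN had more than 1 transcript, against 37.8% of 9111 other loci in ON and 35.8% of 8327 in PN. As each species has a single merged set of transcripts, no error between fish can be given for these shares.

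The ON candidate pairs lay on 35 sequences and the PN pairs on 122 sequences. In ON, NC_031976.1 held 23 pairs with 43 of its 1090 loci (3.94%), and NC_031969.1 held 21 pairs (3.59% of its loci). NC_031972.1 held 18 (2.25%) and NC_031973.1 held 17 (4.21%), beside 2.16% of all ON loci. In PN, NW_005187457.1 held 6 pairs with 11 of its 124 loci (8.87%), beside 1.80% of all PN loci. The short sequence NW_005187661.1 held 4, with 7 of its 19 loci in candidate pairs (36.8%), and NW_005187646.1 held 4, with 5 of its 16 loci (31.3%).

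Candidate loci were less often expressed than other loci, those of neighbours of unequal exon number, in ON, and not in PN. In ON fish 1, 2 and 3, 42.5%, 41.5% and 39.9% of candidate loci reached 1 FPKM, against 49.8%, 50.3% and 50.4% of the other loci. In PN fish 1, 2 and 3 these shares were 59.8%, 62.5% and 58.4% of candidate loci, against 57.4%, 60.3% and 57.7% of the other loci. The difference was −8.86 percentage points on average in ON (−10.5 to −7.26) and 1.79 in PN (0.71 to 2.40), so it was below 0 in every ON fish and above 0 in every PN fish. The 3 ON and the 3 PN differences were set against each other in an exact permutation test (two-sided p = 0.10, which 3 against 3 fish cannot go below). Genome, annotation and transcript set change with the species, and these cannot be told apart from the fish. In PN the difference was −0.054 with FPKM summed over the locus, and in ON it was −1.87 at a minimum of 5 FPKM. In whole liver, fewer cells of a type and less RNA per cell cannot be told apart.

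The ON candidates held more pairs with both members low. Neither member reached a mean of 1 FPKM in 116 ON candidate pairs (43.9%), against 25.3% of neighbours of unequal exon number and 33.8% of neighbours of equal exon number outside the length limit. One member alone reached it in 77 ON candidate pairs (29.2%), against 46.6% of unequal neighbours, and both did in 71 (26.9%), against 28.1%. In PN neither member reached it in 37 candidate pairs (19.8%), against 17.5% of unequal neighbours, one in 77 (41.2%), against 45.2%, and both in 73 (39.0%), against 37.3%. The share of candidate loci listed at 0 averaged 16.3% ± 2.8 in ON, against 10.98% ± 0.72 for other loci, and 10.7% ± 2.0 in PN, against 8.44% ± 0.87 (SD, n = 3 fish each).

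**Figure D1:**
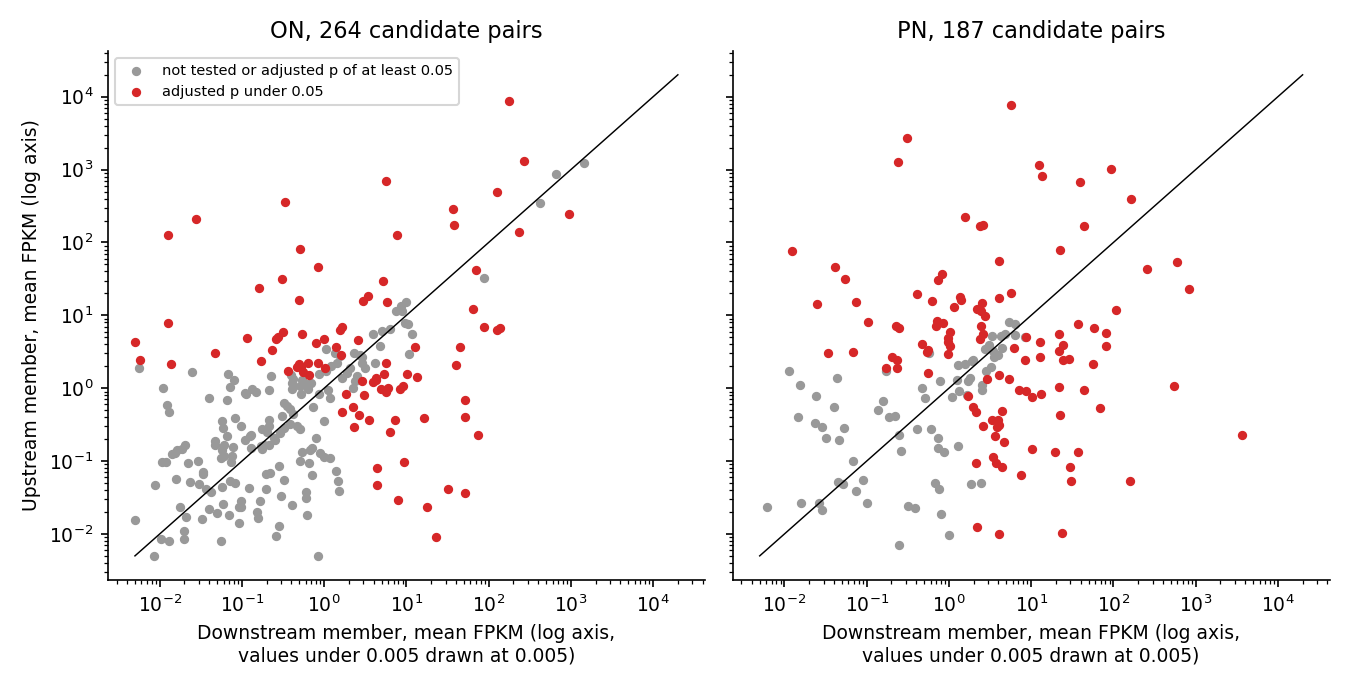
Mean FPKM of the upstream member (y axis) and the downstream member (x axis) of every candidate pair, on log axes, for ON (left) and PN (right), with 1 point per pair and the line of equal level. Red points lie on both sides of the line, as 91 ON pairs and 113 PN pairs passed the test of a difference between members, in nearly equal numbers on either side.

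Candidate loci held a small share of the stranded RNA, and a few loci made up most of it. The longest transcripts of these loci held 2.84%, 3.39% and 3.08% of the summed FPKM of all stranded transcripts in ON fish 1, 2 and 3 (3.10% ± 0.28, SD, n = 3). In PN fish they held 4.22%, 4.14% and 4.50% (4.29% ± 0.19, SD, n = 3). Candidate loci were 2.16% of all loci in ON and 1.80% in PN. ON minus PN in the share of FPKM was −1.18 percentage points, with no overlap between the species. The two-sided exact permutation p was 0.10, the smallest that 3 against 3 fish allow. Genome, annotation and transcript set change with the species and cannot be told apart from the fish. Of the FPKM of these longest transcripts, the most abundant locus gave 40.0% in ON and 31.2% in PN, and the 10 most abundant gave 77.7% and 82.1%. With all transcripts of a locus summed, candidate loci held 2.94%, 3.52% and 3.20% in ON fish 1, 2 and 3. In PN fish they then held 4.75%, 4.63% and 5.00%.

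Whether members of matching structure lie closer in level than other close neighbours was asked within each fish. The measure was the median absolute log2 ratio of upstream over downstream, on log2(FPKM + 0.1), over pairs with a mean of at least 1 FPKM across both members and all 3 fish. This left 127 of 264 ON candidate pairs (48.1%), against 3870 of 5870 unequal neighbours (65.9%), and 142 of 187 PN candidate pairs (75.9%), against 3955 of 5298 (74.7%). The pseudocount understates the ratio of lowly expressed members.

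ON candidate pairs lay closer in level than unequal neighbours in all 3 fish. Their median absolute log2 ratio was 2.40, 1.86 and 2.30 in ON fish 1, 2 and 3, against 3.13, 3.21 and 3.32 for unequal neighbours. The difference averaged −1.03 ± 0.31 (SD, n = 3, two-sided exact sign-flip permutation p = 0.25, the smallest 3 fish allow). With a pseudocount of 1 it was −0.34, and with both members at 1 FPKM or more it was −0.21, in the same direction. Neighbours of equal exon number outside the length limit lay near the candidate pairs. Their median absolute log2 difference over the 3 ON fish was 2.32, against 2.23 in candidate pairs and 3.15 in unequal neighbours.

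PN candidate pairs did not lie closer in all 3 fish. Their median was 3.11, 2.86 and 2.93 in PN fish 1, 2 and 3, against 2.78, 2.78 and 2.96 for unequal neighbours, and the difference averaged 0.13 ± 0.19 (SD, n = 3, exact sign-flip permutation p = 0.50). It was 0.51 with both members at 1 FPKM or more, 0.39 with lengths within 10%, 0.31 with FPKM summed over the locus, and 0.021 without PN fish 1. Over the 6 fish the difference was −0.45 ± 0.67 (SD, exact sign-flip permutation p = 0.22), and with both members at 1 FPKM or more it turned to 0.15. The ON difference minus the PN difference was −1.16, with an exact permutation p of 0.10, the smallest that 3 against 3 fish allow. The 3 fish of a species share a single set of pairs. The SD and p values of this measure, in each species and over 6 fish, thus cover the spread between fish and not between pairs. The 6 fish are not 6 independent sets of pairs.

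**Figure D2:**
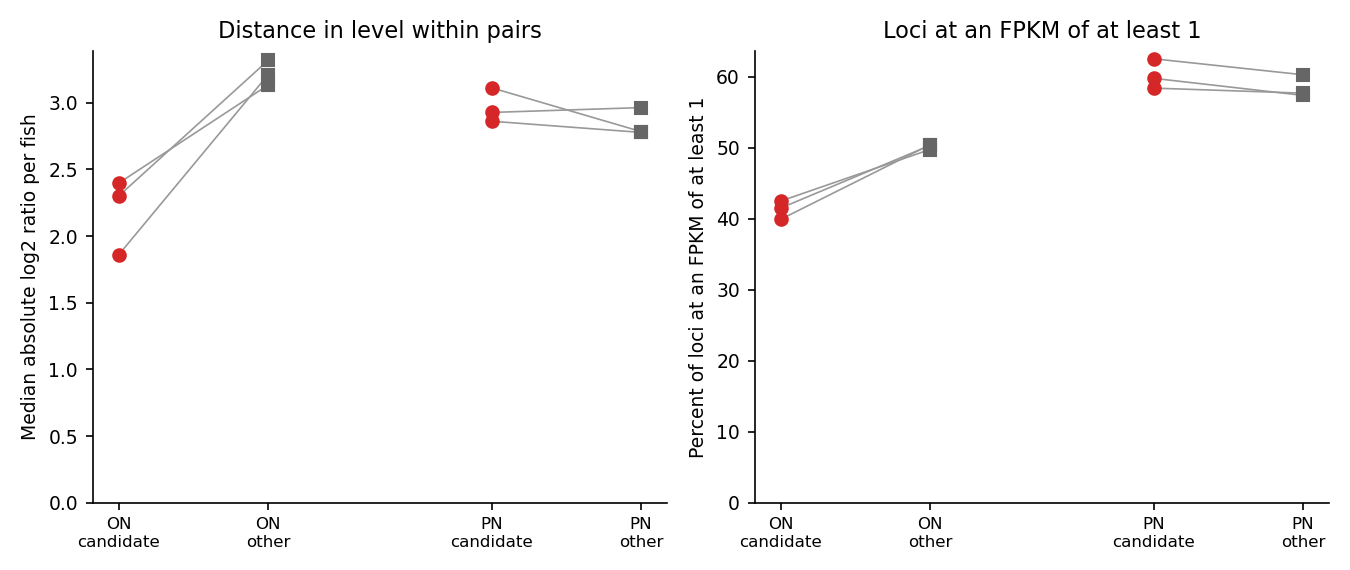
Left, median absolute log2 ratio between members (y axis, log2 of FPKM + 0.1) in candidate pairs and in neighbours of unequal exon number, and right, percent of candidate loci and of other loci at 1 FPKM or more, with 1 point per fish and a line joining the values of a fish. On the left candidate pairs sat lower in all 3 ON fish (1.86 to 2.40, against 3.13 to 3.32), while in PN they sat higher in 2 fish and 0.036 lower in 1. On the right they sat lower in every ON fish and higher in every PN fish.

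The distribution of differences showed the same contrast. The quartiles of the absolute log2 difference were 0.82, 2.23 and 4.24 over the ON candidate pairs, against 1.49, 3.15 and 4.95 over ON unequal neighbours. They were 1.46, 3.05 and 4.59 over the PN candidate pairs, against 1.23, 2.83 and 4.67. Neighbours of equal exon number outside the length limit had a median of 2.32 in ON and 2.67 in PN. A difference under 1 was found in 35 ON candidate pairs (27.6%), against 17.2% of unequal neighbours, and in 27 PN candidate pairs (19.0%), against 20.9%. The more abundant member held a median of 81.0% of its pair's FPKM in ON candidate pairs, against 91.0% in unequal neighbours, and 90.0% in PN candidate pairs, against 88.2%.

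**Figure D3:**
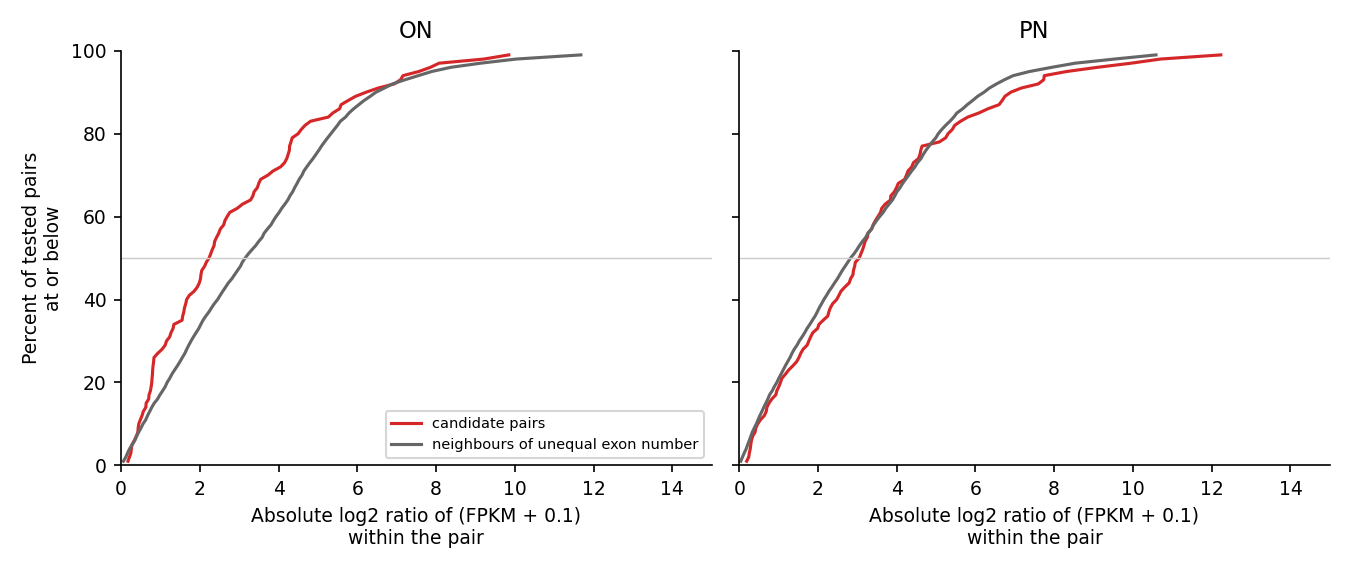
Cumulative percent of pairs (y axis) by the absolute log2 difference between members (x axis, log2 of FPKM + 0.1) for candidate pairs and neighbours of unequal exon number, in ON (left) and PN (right). The ON candidate curve lies left of the other over most of its course, with medians of 2.23 and 3.15, and the PN curves cross, with medians of 3.05 and 2.83.

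In ON the ratio was lower at equal exon number and did not change step by step with the exon difference. The median over all neighbours of equal exon number was 2.29 in ON, against 3.16 at a difference of 1 exon, 3.06 at 2 and 3.20 above 10. In PN these medians were 2.85, 2.85, 2.79 and 2.69. By distance, candidate pairs had medians of 2.07 below 2000 bases, 2.31 from there to 5000 and 2.17 beyond in ON, and of 2.91, 2.86 and 3.60 in PN. Among ON neighbours of unequal exon number the median was 2.58 at a length difference under 5%, and 3.10 with lengths within 25%. In PN these were 3.25 and 2.87. By length difference, candidate pairs had medians of 2.25 under 5%, 2.37 from there to 15% and 2.12 beyond in ON. In PN they had 3.56, 2.88 and 2.89. Closer length thus did not go with a lower ratio in candidate pairs.

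Members differed beyond the spread between fish in most of the pairs whose mean over both members reached the minimum of 1 FPKM. A pair could reach it through a high member alone. By limma's moderated test with Benjamini-Hochberg adjustment over all close neighbours of the species, 91 of 127 ON candidate pairs (71.7%) passed an adjusted p of 0.05, beside a background of 79.4% over all close neighbours tested and 79.9% over those of unequal exon number. In PN 113 of 142 candidate pairs (79.6%) passed, beside a background of 76.3% over all and 76.1% over those of unequal exon number. Among neighbours of equal exon number outside the length limit, 74.0% passed in ON and 77.5% in PN. With no FPKM minimum, 128 of 264 ON candidate pairs (48.5%) passed, against 68.1% of unequal neighbours, and 71.7% of the 187 PN candidate pairs, against 68.3%. With both members at 1 FPKM or more, 36 of 71 ON candidate pairs (50.7%) passed, against 56.2% of unequal neighbours. In PN 48 of 73 (65.8%) did, against 56.9%. The position along the transcript direction had no constant sign. The upstream member was higher in 47 ON and 56 PN candidate pairs called (background 40.6% and 38.5% of all neighbours tested), and the downstream member in 44 and 57 (background 38.9% and 37.8%). With 3 fish per species, these values measure the spread between fish of one tank-reared group.

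The most abundant pairs of both species had a like structure. In ON it was mRNA36852 and mRNA36855, at NW_017613886.1:1232891-1235256 and 1236569-1241186 on the plus strand of ASM185804v2, 1312 bases apart, with 5 exons each and transcripts of 1825 and 1539 bases. The upstream member had 10594, 6379 and 8860 FPKM in ON fish 1, 2 and 3, and the downstream member 181, 181 and 173 FPKM. The levels did not overlap, the upstream member being 48.3-fold higher (log2 difference 5.56 ± 0.21, SE, limma adjusted p = 9.24e-05).

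In PN the most abundant pair was mRNA7542 and mRNA7543, at NW_005187414.1:1215933-1218086 and 1219299-1226136 on the plus strand of PunNye1.0, 1212 bases apart, also with 5 exons each and with transcripts of 1639 and 1896 bases. The upstream member had 7336, 5948 and 10122 FPKM in PN fish 1, 2 and 3, and the downstream member 3.82, 8.10 and 5.07 FPKM. It was 1377-fold higher (log2 difference 10.44 ± 0.40, SE, limma adjusted p = 1.45e-04). The downstream locus has 2 transcripts, and with FPKM summed over the locus the log2 difference was 8.83. Both pairs thus joined one of the most abundant candidate loci with a close downstream neighbour of the same exon number and far lower level. As pairs were ranked by their higher member, a lower partner follows from the ranking. Whether they correspond between the species was not tested.

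The next ON pairs by abundance included members of nearly equal level. mRNA10900 and mRNA10899 lay 6003 bases apart on the minus strand of NC_031970.1 (18955765 to 18958787 and 18947118 to 18949761), with 8 exons each. The upstream member had 379, 2253 and 1106 FPKM in ON fish 1, 2 and 3, and the downstream member 411, 2726 and 1200 FPKM. Both were lowest in fish 1 and highest in fish 2, with a spread between fish far above that between members (log2 difference −0.17 ± 0.15, SE, limma adjusted p = 0.342).

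mRNA12021 and mRNA12019, with 8 exons each and 1309 bases apart on the minus strand of NC_031971.1 (12055311 to 12058017 and 12048860 to 12054001), were also close. The upstream member had 953, 934 and 765 FPKM and the downstream member 654, 690 and 622 FPKM in ON fish 1, 2 and 3. The levels did not overlap, and the difference lay near the threshold (log2 difference 0.43 ± 0.16, SE, limma adjusted p = 0.0575). It passed with a pseudocount of 1 (adjusted p = 0.0206) and among pairs with both members at 1 FPKM or more (adjusted p = 0.0406).

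The candidate pair with the most exons was likewise close in level. mRNA20318 and mRNA20320 had 41 exons each, with transcripts of 5345 and 5493 bases, and lay 1913 bases apart on the plus strand of NC_031976.1 (25601666 to 25627437 and 25629351 to 25653211). The upstream member had 379, 345 and 320 FPKM and the downstream member 441, 362 and 464 FPKM in ON fish 1, 2 and 3. The ranges overlapped (log2 difference −0.27 ± 0.18, SE, limma adjusted p = 0.216). A p above the threshold does not show that the members of these 3 pairs are expressed alike.

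Other abundant ON pairs differed by several fold. mRNA21962 and mRNA21966, with 15 exons each and 18775 bases apart on NC_031977.1, had 1296, 1274 and 1348 FPKM upstream and 247, 302 and 264 FPKM downstream (4.82-fold, log2 difference 2.27 ± 0.16, SE, limma adjusted p = 2.83e-04). mRNA12227 and mRNA12228, with 6 exons each and 12583 bases apart on NC_031971.1, had 184, 361 and 187 FPKM upstream and 1055, 883 and 917 FPKM downstream, the downstream member being 3.90-fold higher (log2 difference −2.03 ± 0.29, SE, limma adjusted p = 0.00276). Among the 6 most abundant ON pairs the members furthest apart were mRNA5480 and mRNA5478, with 4 exons each and 2704 bases apart on NC_031966.1. The upstream member had 719, 568 and 802 FPKM in ON fish 1, 2 and 3 and the downstream member 5.30, 7.66 and 3.93 FPKM, a 124-fold difference. The log2 difference was 6.96, and 6.25 with FPKM summed over the locus.

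**Figure D4:**
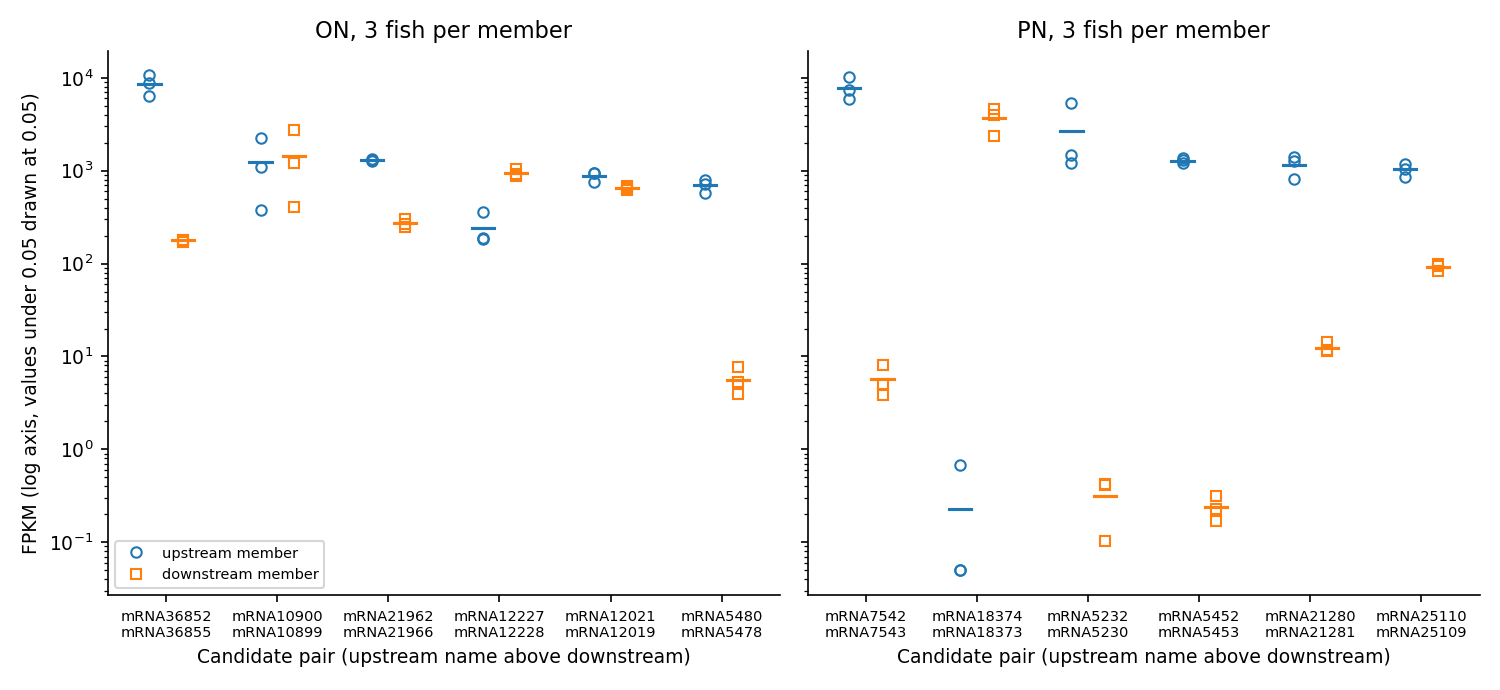
FPKM of each fish (points, with bars for means, log axis) for the upstream and downstream members of the 6 most abundant candidate pairs of ON and of PN, the upstream member first in each pair. In ON 2 of the 6 pairs, mRNA10900 with mRNA10899 and mRNA12021 with mRNA12019, have members of nearly one level, and in PN the members of all 6 pairs are apart.

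Every one of the 6 PN pairs with the most abundant higher member was unequal, and ranking by that member favours such pairs. mRNA18374 and mRNA18373, with 6 exons each and 2516 bases apart on NW_005187465.1, had 0.685, 0 and 0 FPKM upstream and 4565, 2390 and 4004 FPKM downstream (log2 difference −14.11 ± 0.59, SE, limma adjusted p = 1.76e-04). The difference was −14.92 without PN fish 1 and −13.53 without PN fish 3. An exact 0 can be a failed estimate, so no fold is given. mRNA5232 and mRNA5230, with 6 exons each, transcripts of 988 and 977 bases and 4569 bases between them on NW_005187407.1, had 1469, 5333 and 1219 FPKM upstream and 0.423, 0.413 and 0.102 FPKM downstream, 8553-fold apart. mRNA5452 and mRNA5453, with 7 exons each and 447 bases apart on NW_005187408.1, had 1357, 1196 and 1304 FPKM upstream and 0.169, 0.313 and 0.230 FPKM downstream, 5419-fold apart. The value of mRNA5230 in PN fish 3 lay under the floor of 3 reads, 0.116 FPKM there at 1000 bases and higher for this shorter transcript. The values of mRNA5453 lay not far above its floor of at most 0.129 FPKM. Both folds thus rest on few reads. In each of these pairs the low member lay far below the high one in every fish. All 6 abundant PN pairs passed the test, with limma adjusted p from 7.84e-05 to 6.34e-04.

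The remaining abundant PN pairs had both members above 10 FPKM. mRNA21280 and mRNA21281, with 6 exons each and 10604 bases apart on NW_005187483.1, had 1272, 805 and 1404 FPKM upstream and 11.6, 14.3 and 11.3 FPKM downstream (log2 difference 6.50 ± 0.32, SE, limma adjusted p = 2.13e-04). mRNA25110 and mRNA25109, with 6 exons each and 500 bases apart on NW_005187515.1, had 856, 1192 and 1049 FPKM upstream and 94.5, 84.0 and 99.6 FPKM downstream, an 11.1-fold difference (log2 difference 3.47 ± 0.30, SE, limma adjusted p = 6.34e-04).

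Several pairs joined a well expressed member with one at or near 0. A wide gap was not particular to candidate pairs. An absolute log2 difference above 5 was found in 21 ON candidate pairs tested (16.5%), against 24.3% of unequal neighbours. In PN it was found in 32 (22.5%), against 20.9%. In ON the largest upstream excess was at mRNA32047 and mRNA32048, with 7 exons each at NC_031984.1:31155931-31161542 and 31163841-31167902, where the upstream member had 215, 213 and 193 FPKM in ON fish 1, 2 and 3 and the downstream member 0.0421, 0 and 0.0412 FPKM. Against the floor of 3 reads, 0.0673 FPKM for this transcript, the upstream member was at least 2873-fold higher. This and the minimum folds below hold only if a 0 is a measured value and not a failed estimate. mRNA38058 and mRNA38060, with 11 exons each on NW_017615339.1, had 44.3, 230 and 102 FPKM upstream and 0.0373, 0 and 0 FPKM downstream, at least 663-fold higher upstream. Its log2 difference of 9.83 was 10.58 without ON fish 1 and 9.16 without ON fish 2. mRNA9170 and mRNA9171, with 11 exons each on NC_031969.1, had 129, 545 and 412 FPKM upstream and 0.0519, 0.180 and 0.765 FPKM downstream. mRNA4331 and mRNA4330, with 7 exons each on NC_031965.1, had 75.4, 108 and 64.5 FPKM upstream and 0.647, 0.368 and 0.495 FPKM downstream, 164-fold apart.

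The reverse, an expressed downstream member beside an upstream member near 0, was also found. In ON the upstream member mRNA5144 had 0, 0.109 and 0 FPKM and the downstream member mRNA5143, 523 bases away on NC_031966.1, 46.7, 47.7 and 59.6 FPKM. For mRNA7732 and mRNA7736 on NC_031968.1 the values were 0.125, 0 and 0 FPKM upstream and 27.3, 32.4 and 35.5 FPKM downstream, at least 178-fold higher downstream. For mRNA36180 and mRNA36178, only 206 bases apart on NC_031987.1, they were 0.140, 0.290 and 0.263 FPKM upstream and 82.0, 70.8 and 73.0 FPKM downstream, a 326-fold difference of the longest transcripts. The upstream locus of that pair has 2 transcripts, and with FPKM summed over the locus the log2 difference was −0.76 in place of −7.86 (limma adjusted p = 0.0131), so the whole loci lay far closer in level than their longest transcripts. For mRNA21498 and mRNA21500 on NC_031977.1 they were 0.0268, 0 and 0 FPKM upstream and 18.2, 28.3 and 22.5 FPKM downstream, at least 343-fold higher downstream. All 8 ON pairs were chosen among those called on their longest transcripts, so passing follows from the choice. Their limma adjusted p ran from 4.53e-05 to 1.89e-04.

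PN held pairs of the same kind beside the abundant ones. mRNA28529 and mRNA28528, with 9 exons each on NW_005187553.1, had 99.0, 78.6 and 52.0 FPKM upstream and 0, 0.0366 and 0 FPKM downstream in PN fish 1, 2 and 3, at least 643-fold higher upstream. mRNA18658 and mRNA18659, with 7 exons each on NW_005187466.1, had 0, 0.161 and 0 FPKM upstream and 227, 123 and 130 FPKM downstream. mRNA38280 and mRNA38278, with 16 exons each on NW_005187767.1, had 1.77, 0.798 and 0.658 FPKM upstream and 614, 399 and 611 FPKM downstream, a 504-fold difference. The last named, mRNA5963 and mRNA5962 on NW_005187409.1, had 0, 0.403 and 0 FPKM upstream and 32.5, 36.2 and 43.2 FPKM downstream. All 4 were likewise chosen among called pairs, with limma adjusted p from 1.18e-04 to 4.76e-04.

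Pairs with both members well expressed were few. Of 13 ON candidate pairs with both members at 10 FPKM or more 5 (38.5%) were within 2-fold, with a median ratio of 3.90 and a range of 1.16 to 48.3, against 33.3% of 96 unequal neighbours with a median of 3.46. Of 11 such PN candidate pairs 0 were within 2-fold, with a median ratio of 11.03 and a range of 2.35 to 93.3, against 39.8% of 108 unequal neighbours with a median of 2.96. With both members at 1 FPKM or more, 33 of 71 ON candidate pairs (46.5%) were within 2-fold, against 37.9% of unequal neighbours, and 25 of 73 PN candidate pairs (34.2%), against 39.8%. These are descriptions of few pairs by their longest transcripts, not by locus sums, and no test between the species was made on them.

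By their longest transcripts, the PN pairs closest in level at this abundance were still apart. mRNA40672 and mRNA40671, with 11 exons each and 12516 bases apart on NW_005187904.1, had 489, 301 and 381 FPKM upstream and 157, 152 and 189 FPKM downstream in PN fish 1, 2 and 3 (log2 difference 1.21 ± 0.29, SE, limma adjusted p = 0.0173). That call was lost without any 1 of the fish, with adjusted p of 0.055 to 0.072. mRNA34004 and mRNA34005, with 7 exons each and 496 bases apart on NW_005187645.1, had 64.6, 83.1 and 90.4 FPKM upstream and 21.8, 24.2 and 20.9 FPKM downstream (log2 difference 1.82 ± 0.21, SE, limma adjusted p = 0.00159). The downstream locus has 2 transcripts, and with FPKM summed over the locus the difference turned to −0.51 (limma adjusted p = 0.0495).

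The third of these PN pairs held the most abundant strandless transcript of the species between its members. mRNA20005 and mRNA20008, with 7 exons each and 10468 bases apart on the plus strand of NW_005187474.1, had 132, 133 and 247 FPKM upstream and 24.8, 52.2 and 55.1 FPKM downstream (log2 difference 1.98 ± 0.29, SE, limma adjusted p = 0.00363). Between them lay mRNA20006, a single-exon transcript of 323 bases with no strand listed (2901046 to 2901368), at 18800, 17394 and 20731 FPKM in PN fish 1, 2 and 3. It was far above either member in every fish. Strandless transcripts lay between the members of 15 ON candidate pairs (5.68%), against 4.45% of unequal neighbours, and of 23 PN candidate pairs (12.3%), against 15.9%. In ON the most abundant of them, mRNA19690 between mRNA19689 and mRNA1254, had 8.51, 8.37 and 7.60 FPKM.

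Most candidate pairs stood alone, and a few formed longer runs. Of 242 ON runs 222 had 2 loci, 18 had 3 and 2 had 4, and of 176 PN runs 167 had 2 loci, 8 had 3 and 1 had 5. A locus with a mean of at least 1 FPKM was present in 11 of the 18 ON runs of 3 and in 5 of the 8 PN runs of 3, and only for these is a most abundant locus given. It was the upstream one in 5, the downstream one in 4 and the middle one in 2 of the ON runs, and in 1, 2 and 2 of the PN runs. It held a median of 74.8% of its run's FPKM in ON and 85.1% in PN. A large share follows in part from taking the highest locus, and no share from other neighbours was set beside it.

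Both ON runs of 4 had their most abundant locus at the downstream end. On the plus strand of NC_031968.1, 4 loci of 9 exons each lay between 9258729 and 9300502. In ON fish 1, 2 and 3 mRNA6603 had 1.27, 1.51 and 0.93 FPKM, mRNA6605 3.03, 3.04 and 2.46 FPKM, mRNA6606 1.47, 2.12 and 1.17 FPKM, and mRNA6607 10.48, 10.88 and 9.26 FPKM. The order of the loci was the same in every fish. On NC_031976.1, 4 loci of 6 exons each lay between 9592221 and 9634233. There mRNA19536 at the downstream end had 1.448, 2.004 and 3.223 FPKM, and mRNA19532, mRNA19534 and mRNA19535 stayed between 0.17 and 1.39 FPKM.

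The most abundant ON runs of 3 had opposite gradients. On the plus strand of NC_031970.1 (19627971 to 19650497, 6 exons each), mRNA10952 had 473, 596 and 424 FPKM, mRNA10954 112, 164 and 106 FPKM, and mRNA10955 4.04, 14.99 and 3.90 FPKM, so each locus was below its upstream neighbour in each ON fish. On the minus strand of NC_031974.1 (12947544 to 12966451, 4 exons each), mRNA17271 had 7.14, 5.55 and 6.56 FPKM, mRNA17270 7.21, 5.39 and 6.09 FPKM, and mRNA17268 at the downstream end 117, 121 and 140 FPKM. Its first pair of loci was level in all 3 fish.

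The longest run of the series was in PN and had 5 loci of 23 exons each, between 532182 and 694920 on the minus strand of NW_005187646.1. From upstream to downstream, mRNA34119 had 0.56, 1.19 and 1.24 FPKM, mRNA34118 0, 0 and 1.42 FPKM, mRNA34115 2.43, 2.11 and 1.83 FPKM, mRNA34114 36.2, 71.6 and 60.4 FPKM, and mRNA34113 3.23, 4.68 and 4.21 FPKM in PN fish 1, 2 and 3. The fourth locus held 88.0% of the run's FPKM. The abundant PN pair mRNA7542 and mRNA7543 continued into another locus downstream, mRNA7545, with 81.0, 59.3 and 102 FPKM, so the middle locus was the lowest of its run in every fish.

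The other named PN runs of 3 were also uneven. On NW_005187417.1 (11 exons each, minus strand), mRNA8421 had 1.01, 1.08 and 0.74 FPKM, mRNA8420 62.1, 23.8 and 45.5 FPKM, and mRNA8419 350, 152 and 264 FPKM, each locus being above its upstream neighbour in each fish. On NW_005187472.1 (4 exons each, plus strand), mRNA19693 had 0, 0 and 0.16 FPKM, mRNA19694 22.4, 24.1 and 45.8 FPKM, and mRNA19696 2.24, 0 and 0 FPKM, so the middle locus alone was expressed throughout.

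**Figure D5:**
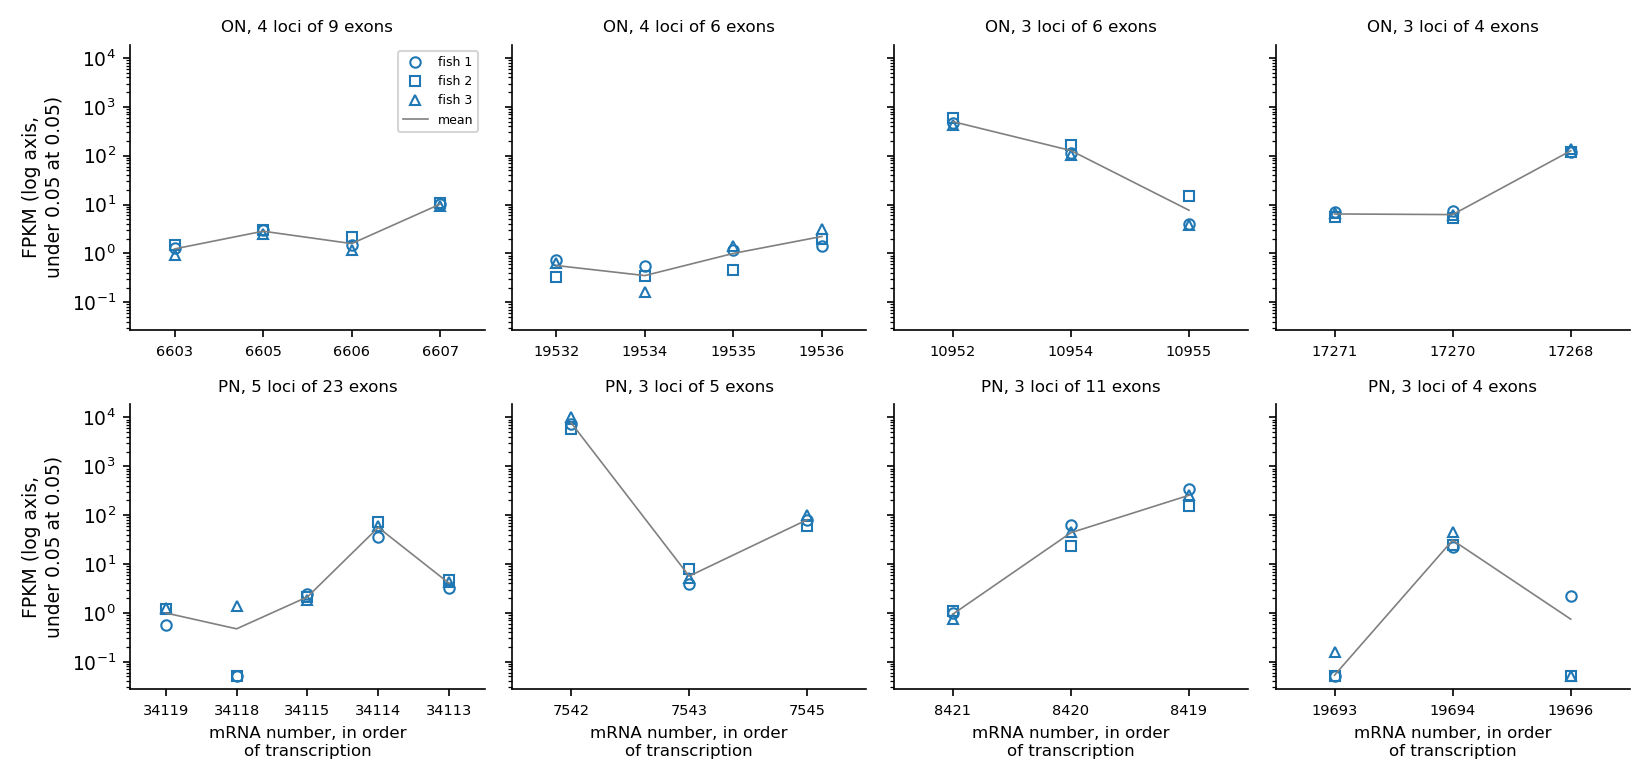
FPKM of each fish (points, with a line through the means, log axis) by position in the run, from upstream to downstream, for the 4 longest or most abundant runs of ON and of PN. Single loci stand out in several runs, as mRNA6607 at 9.26 to 10.9 FPKM in ON and mRNA34114 at 36.2 to 71.6 FPKM in PN.

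Whether members of a pair varied together between fish was described for the pairs tested in which both members were above 0 in every fish. Both members were highest in the same fish in 35 of 100 ON candidate pairs (35.0%), against 35.9% of unequal neighbours, and in 48 of 115 PN candidate pairs (41.7%), against 37.0%. Across pairs, the correlation of the members' deviations from their means was 0.28 in ON candidate pairs, against 0.023 in unequal neighbours, and 0.17 in PN candidate pairs, against 0.062. In neighbours of equal exon number outside the length limit it was 0.17 in ON and 0.20 in PN, where the PN value was above that of the candidate pairs. All points share the same 3 libraries per species, and pairs are not independent replicates. mRNA10900 and mRNA10899 above are one such pair.

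Pairs at the limits of the rule ranged widely in level. Just inside the distance limit, mRNA36538 and mRNA36539 in ON lay 19973 bases apart with no value above 0.0621 FPKM, and just outside it mRNA4649 and mRNA1039 lay 20087 bases apart with 3.76, 4.04 and 1.63 FPKM upstream and 4.70, 2.93 and 6.76 FPKM downstream. In PN mRNA18707 and mRNA18705 (18592 bases) had 5.32, 5.34 and 6.03 FPKM upstream and 16.2, 14.6 and 35.6 FPKM downstream, and mRNA9084 and mRNA9081 (20362 bases) stayed at or below 1.17 FPKM. Just inside the length limit, mRNA16215 and mRNA16216 in ON differed by 24.96% and mRNA10373 and mRNA10374 in PN by 24.95%, and just outside it mRNA20882 and mRNA20884 in ON differed by 25.40% and mRNA43023 and mRNA43026 in PN by 25.04%. That last pair had 65.4, 52.0 and 53.5 FPKM upstream and 2.29, 2.11 and 4.71 FPKM downstream. The next PN pairs at the length limit had a higher downstream member. Just inside, mRNA35367 had 62.1, 86.7 and 58.9 FPKM, against at most 0.802 FPKM for mRNA35366 upstream, and just outside, mRNA11555 had 139, 169 and 6.35 FPKM, against 4.96, 4.28 and 0.222 FPKM for mRNA11556 upstream.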

How the data were processed

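Livers of 3 ON and 3 PN males were compared, grouped by the labels. Paired reads of 75 bp were aligned by the authors with HISAT2 2.1.0. They assembled them with StringTie and the reference annotation, merged the replicates of a species, removed unexpressed and duplicated transcripts and merged similar transcripts of a locus; whether tandem copies were touched was not tested. The FPKM and the coverage per base of each transcript are as deposited. These are not counts, so no count model was used. Coverage divided by FPKM was constant within a library (relative tolerance 0.0001) and gave the aligned bases.

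Members and lists were chosen with earlier results of these data known. Upstream minus downstream log2(FPKM + 0.1) was tested with limma 3.58.1 (R 4.3.3), with a variance trend on the level, over all close same-strand neighbours of a species with a mean of at least 1 FPKM. Measures per fish were compared with two-sided exact permutation tests. Pairs named were, per species, the 6 with the highest member, the 4 called with the largest difference in each direction, the 3 with the smallest difference among pairs with both members at 10 FPKM or more, and the 4 longest runs (ties by summed FPKM), besides pairs at the limits of the rule. Other names were chosen after their values were seen. Software was matplotlib 3.10.9, scipy 1.17.1, pandas 2.3.3 and numpy 2.4.6 in Python 3.11.15, and scripts were tested on simulated data. Positions are those of the tables (ASM185804v2 in ON, PunNye1.0 in PN). Sequence identity was not analysed here. Alternatives covered pseudocount, FPKM minimum, length limit, locus sums and single fish left out.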

Additional observations from a re-analysis of the deposited data

Results flagged for a closer look

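The share of candidate loci reaching 1 FPKM, minus that of other loci (of neighbours of unequal exon number), was −8.86 percentage points in ON and 1.79 in PN. It stood out because every ON fish was below 0 and every PN fish above 0. The two-sided exact permutation test of 3 ON against 3 PN fish gave p = 0.10, the smallest it can give, so the difference did not pass a threshold of 0.05. Genome, annotation and transcript set change with the species, and their part in it cannot be told apart from that of the fish.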

How the results depend on the processing

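With lengths within 10%, 111 candidate pairs were left in ON and 72 in PN. Of the 50 ON pairs tested 36 (72.0%) passed the test of a difference between members, against 79.9% of unequal neighbours. Of the 53 PN pairs tested 41 (77.4%) passed, against 76.1%. With both members at 1 FPKM or more, 36 of 71 ON pairs (50.7%) passed, against 56.2% of unequal neighbours, and 48 of 73 PN pairs (65.8%), against 56.9%. In that setting the difference in the median absolute log2 ratio over 6 fish reversed to 0.15 (exact sign-flip permutation p = 0.47). With FPKM summed over the locus, the PN share of summed FPKM in candidate loci was 4.80%, mRNA34004 over mRNA34005 reversed to −0.51, and the log2 differences of mRNA36180 over mRNA36178 and of mRNA7542 over mRNA7543 were −0.76 and 8.83, in place of −7.86 and 10.44 for the longest transcripts. The cause was not tested. In alternatives chosen after seeing the data, the difference in the share of loci expressed was −1.87 in ON at 5 FPKM, and in PN it was 0.17 at 0.5 FPKM, 3.48 at 5 FPKM and −0.054 with locus sums.

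Leaving out single fish gave 75 to 83 pairs called in ON, 57.7% to 65.6% of those tested, against 71.2% to 75.8% of unequal neighbours. In PN 102 to 109 were called, 73.4% to 77.9% of those tested, against 69.0% to 73.2%. The difference in the median ratio was −1.11 to −0.84 in ON and 0.021 to 0.25 in PN. The log2 difference of mRNA40672 over mRNA40671 was 1.00 to 1.32 and no longer passed. Without PN fish 2, mRNA18658 over mRNA18659 was −10.75 in place of −10.12 and mRNA5963 over mRNA5962 was −8.55 in place of −7.76. Fitted differences with a member near 0 moved with the pseudocount, as for mRNA32047 over mRNA32048 (7.66 at 1 FPKM, 12.76 at 0.01 FPKM and 10.68 at 0.1 FPKM). With the replicate number as a replicate block, ON minus PN in the share of summed FPKM was −1.18 with an exact sign-flip permutation p of 0.25, but the numbers mark different fish and nothing pairs them. Depth limits statements on members below the floor of 3 reads, which are not shown to be silent.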
